A study of Mus musculus with 10 samples.

Results

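Bcl6 and 8 genes of the growth hormone (GH) pathway were followed in mouse liver after editing of Bap1 in hepatocytes, with and without injury by carbon tetrachloride (CCl4). The 9 genes are Bcl6, Ghr, Jak2, Stat5a, Stat5b, Igf1, Igfals, Socs2 and Cish, taken by symbol from a count table of 55291 genes. All 9 were among the 17015 genes with enough counts to be tested. Bcl6 was chosen by its measured level, which is higher in sgBap1 than in NTC livers under both treatments, so these differences are given as a description, with no test. The other 8 were chosen as the pathway that Bcl6 is known to oppose.

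GH from the pituitary binds its receptor Ghr on hepatocytes and activates the kinase Jak2, which phosphorylates the transcription factors Stat5a and Stat5b. These factors induce Igf1, the main circulating growth factor of GH action, and Igfals, the liver protein that holds IGF1 in the blood, as well as Socs2 and Cish, which dampen the signal. Bcl6 is a transcriptional repressor best known from germinal centre B cells and follicular helper T cells. In liver it binds many of the sites that Stat5 binds, and it represses genes whose level differs between the sexes.

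All 10 livers came from female mice aged 16 to 20 weeks that carried a Cas9 allele kept silent by a Lox-Stop-Lox cassette. Each mouse, controls included, received an AAV8 virus with a U6-driven guide RNA and Cre under TBG, a hepatocyte promoter, a design that aims Cas9 at hepatocytes, while the whole lobe also holds cells of other types and cells the virus did not reach. The guide was either a non-targeting control (NTC) or directed at Bap1 (sgBap1), the gene of a nuclear deubiquitinase. On day 10 the mice were injected with CCl4, at 1 part in 9 parts of olive oil, or with olive oil as vehicle (Veh), and the right liver lobe was taken 48 h later. There were 2 livers each in NTC-Veh and sgBap1-Veh, and 3 livers each in NTC-CCl4 and sgBap1-CCl4. Levels are given as CPM, the count relative to the library size after normalization, and log2 fold changes (LFC) carry their standard error (SE). The comparisons share livers, so they are not independent of each other. Adjusted p-values are two-sided, from edgeR's quasi-likelihood test with Benjamini-Hochberg adjustment over the 17015 genes, and a gene was called at an adjusted p under 0.05.

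Bap1 was lower in the sgBap1 livers under both treatments. Its level was 34.8 and 34.8 CPM in NTC-Veh against 17.5 and 19.5 in sgBap1-Veh, an LFC of -0.91 (SE 0.12, adjusted p = 0.0208). With CCl4 it was 30.1, 31.5 and 29.5 CPM in NTC against 17, 21.8 and 19.1 in sgBap1, an LFC of -0.65 (SE 0.10, adjusted p = 0.0295). The groups did not overlap, but by the quasi-likelihood test the calls passed the threshold narrowly. With the library size alone as scaling its adjusted p-values were 0.0510 and 0.0646. DESeq2's Wald test called Bap1 in both comparisons (adjusted p = 2.6e-07 with vehicle and 4.7e-06 with CCl4). The count covers the whole transcript and does not read the edit itself. The libraries held 3.30e+07 to 5.22e+07 counts, at which 3 counts are 0.0511 to 0.112 CPM. All 8 hepatocyte markers were detected. With vehicle they summed to 159613 to 195280 (NTC) and 138727 to 144827 CPM (sgBap1), without overlap. With CCl4 the sums overlapped, at 117482 to 128393 (NTC) and 101569 to 130236 CPM (sgBap1). The liver sgBap1-CCl4 replicate 2 stood apart in its adipocyte markers, which summed to 233 CPM there and to at most 0.0850 CPM in the other livers, with Adipoq at 2124 counts against at most 2 elsewhere. Igf1 and Igfals, which moved most without it, are also given with that liver left out. Since whole tissue was measured, fewer cells of a type and less RNA per cell cannot be told apart.

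The sites that Stat5 and Bcl6 bind have the letters TTCNNNGAA in common, where N is any base. This motif reads the same on both strands, so a match counts for both. It was searched in RefSeq promoter windows of GRCm38.p6, each 250 bases before to 50 bases after a transcription start. Of the 9 genes 8 had windows, 14 in all, and 5 of the 14 held the motif, against 8.30% of all 32851 windows of that length. The matches lay in Bcl6, Igfals and Cish, and none was found in these windows of Ghr, Jak2, Stat5a, Stat5b and Igf1. No window was matched for Socs2. The stretches with the matches are shown 5′ to 3′ on the strand of the gene, with the motif in capitals, because they show how the letters recur in Bcl6 itself and in both a secreted product and a feedback gene of the pathway:
Bcl6 first window, chr16:23988932-23989000, minus strand: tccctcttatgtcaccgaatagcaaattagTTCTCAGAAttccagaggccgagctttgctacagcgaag
Bcl6 second window, chr16:23981333-23981481, minus strand: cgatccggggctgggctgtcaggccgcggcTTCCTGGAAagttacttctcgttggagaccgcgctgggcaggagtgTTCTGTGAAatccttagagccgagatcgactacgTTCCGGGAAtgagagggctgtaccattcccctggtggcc
Igfals first window, chr17:24877594-24877646, plus strand: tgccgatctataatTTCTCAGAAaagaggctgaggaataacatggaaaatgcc
Igfals second window, chr17:24878143-24878211, plus strand: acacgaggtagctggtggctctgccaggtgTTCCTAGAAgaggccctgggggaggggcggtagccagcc
Cish, chr9:107296659-107296678, plus strand: TTCCTGGAAagTTCTTGGAA
In Bcl6 the matches began 118 bases before the start in the first window (position -118), and at positions -168, -122 and -88 in the second. In Igfals they began at -236 and -58, and in Cish at positions 1 and 12, within annotated exon sequence of the gene. A match is a match of letters and was not tested for binding.

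Bcl6 (chromosome 16, 23965052 to 23988852, minus strand, GRCm38) had 5.17 and 6.82 CPM in NTC-Veh and 25.3 and 18.5 CPM in sgBap1-Veh. With CCl4 it had 7.08, 10.1 and 8.30 CPM in NTC and 26.3, 21.3 and 21.8 CPM in sgBap1. Every sgBap1 liver was above every NTC liver, whichever the treatment, and the lowest sgBap1 liver held 18.5 CPM against 10.1 in the highest NTC liver. Within a treatment, 21.7% of all genes with vehicle and 10.1% with CCl4 were higher in sgBap1 without overlap. The share without overlap across both treatments was not counted. Relative to NTC the LFC of Bcl6 was 1.87 (SE 0.22) with vehicle and 1.45 (SE 0.17) with CCl4, or 3.66-fold and 2.73-fold. With each liver left out in turn these values were 1.62 to 2.08 and 1.33 to 1.59. In order of their means the groups were NTC-Veh (5.99 ± 1.16 CPM, SD, n = 2), NTC-CCl4 (8.48 ± 1.5, n = 3), sgBap1-Veh (21.9 ± 4.77, n = 2) and sgBap1-CCl4 (23.2 ± 2.77, n = 3).

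**Figure D1:**
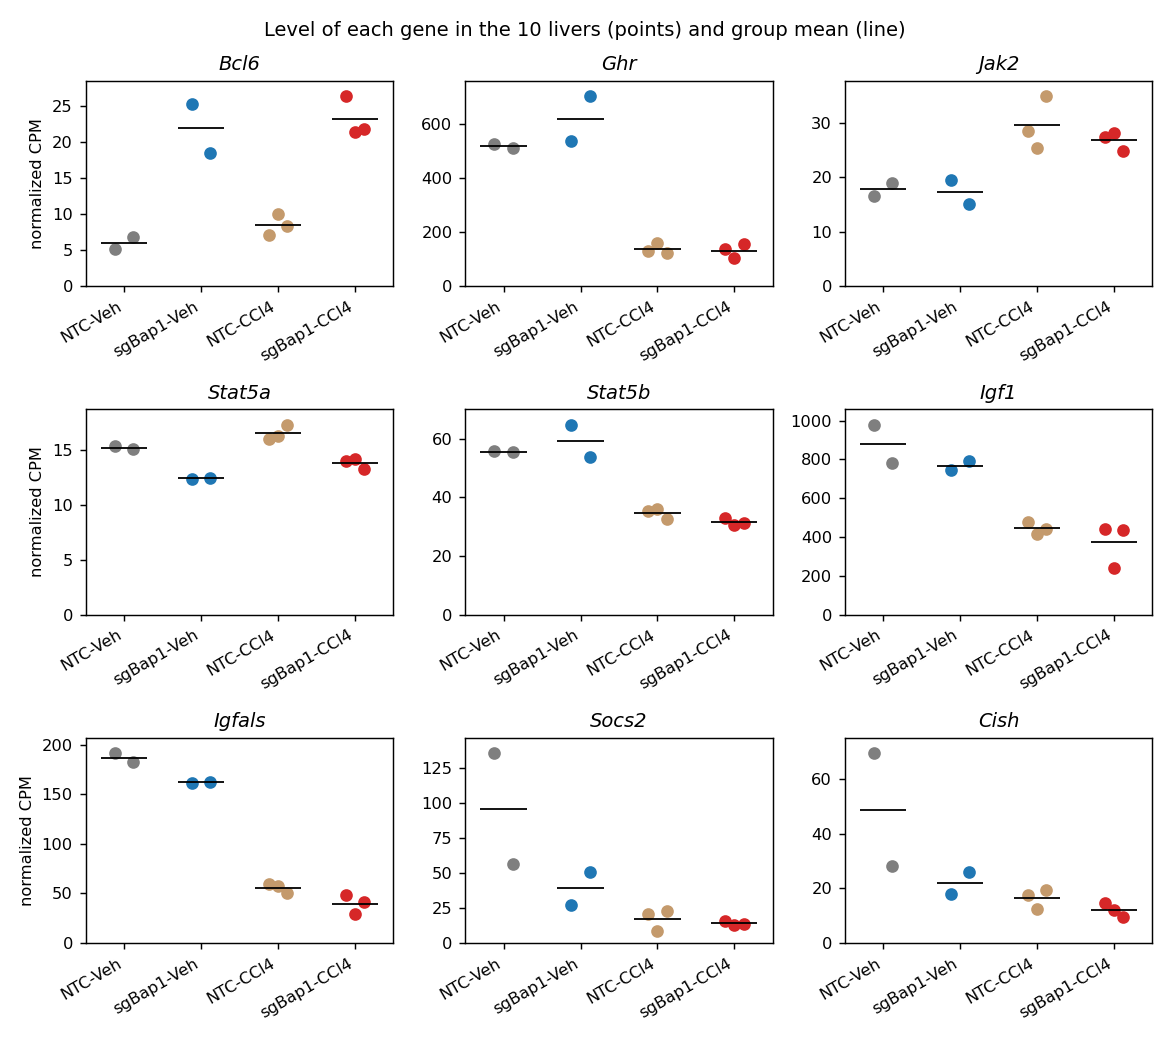
Normalized CPM (vertical axes, from 0) of each of the 9 genes in the 10 livers, by group, with each point a liver and each line a group mean. Bcl6 separates by guide, with the sgBap1 livers at 18.5 to 26.3 CPM and the NTC livers at 5.17 to 10.1, whereas within each guide Ghr, Stat5b, Igf1, Igfals, Socs2 and Cish are lower and Jak2 is higher in the CCl4 livers.

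The response of Bcl6 to CCl4 was not the criterion by which Bcl6 was chosen. It is built from the same livers as the differences between guides that were, so its p-values are not independent of the choice. In NTC livers the LFC with CCl4 was 0.50 (SE 0.20), and it did not pass the threshold (adjusted p = 0.0546, range 0.00276 to 0.0888 over the other settings that kept all livers). All 3 NTC-CCl4 livers were above both NTC-Veh livers, as for 36.7% of all genes. DESeq2's Wald test placed Bcl6 on the other side of the threshold (adjusted p = 0.0419). So did some quasi-likelihood fits without 1 liver, among them that without NTC-CCl4 replicate 1 (0.62, adjusted p = 0.0300) and fits without a liver outside this comparison. Over the fits without 1 liver the value ran from 0.32, without NTC-Veh replicate 1, to 0.72. In sgBap1 livers it was 0.08 (SE 0.19, adjusted p = 0.740), the livers overlapped, and the sign turned when sgBap1-Veh replicate 2 or sgBap1-CCl4 replicate 1 was left out. With the library size alone as scaling the median gene is higher with CCl4 by 0.50 in NTC and 0.52 in sgBap1 livers. Bcl6 then had 0.97 and 0.55, both past the threshold, which is 0.468 and 0.0339 above the median gene.

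Markers of the immune cells in which Bcl6 is best known were given beside it. The 5 B cell markers summed with vehicle to 3.93 to 8.39 (NTC) and 9.39 to 11.5 CPM (sgBap1), and with CCl4 to 9.56 to 13.2 (NTC) and 8.88 to 10.2 CPM (sgBap1). Of the germinal centre and follicular helper markers, Il21, the helper cytokine, had at most 4 counts in any liver. Pdcd1, a receptor of follicular helper and other activated T cells, had no counts in either NTC-Veh liver and 4 and 2 counts in sgBap1-Veh. With CCl4 it had 6, 5 and 5 counts in NTC and 11, 23 and 12 in sgBap1. It was higher without overlap, as were 10.1% of all genes, and not called (1.25, adjusted p = 0.252). Of the 4 tested genes of these markers it was the 1 with a positive log2 fold change with CCl4, and 3 were negative. The 6 genes of that list summed with vehicle to 6.89 to 7.73 (NTC) and 6.92 to 7.04 CPM (sgBap1), and with CCl4 to 16.2 to 18.3 and 14.1 to 14.6 CPM, most of it S1pr2. The leukocyte marker Ptprc had 14.9 and 9.98 CPM in NTC-Veh against 26.2 and 25.3 in sgBap1-Veh, an LFC of 1.05 (SE 0.18, adjusted p = 0.0418), and -0.12 with CCl4 (adjusted p = 0.744). All 7 macrophage markers had a positive log2 fold change with vehicle, with no call, and a summed level of 205 to 314 (NTC) and 423 to 611 CPM (sgBap1). With CCl4 5 of the 7 were below 0, and the sums overlapped, at 773 to 1046 (NTC) and 777 to 984 CPM (sgBap1). The 4 T cell markers summed with vehicle to 1.22 to 2.99 (NTC) and 4.75 to 4.92 CPM (sgBap1). With CCl4 all 4 were below 0, and the sums overlapped, at 3.53 to 7.26 (NTC) and 3.25 to 5.65 CPM (sgBap1). The part of these cells in the differences of Bcl6, with vehicle or with CCl4, was not tested.

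Per kilobase of annotated exon Bcl6 was the least abundant of the 9 genes in NTC-Veh livers, at 0.895 ± 0.17 CPM per kilobase (SD, n = 2), below Stat5a at 2.13 ± 0.025. Igf1 led at 88.9 ± 14.1, followed by Igfals at 59.0 ± 2.05 and Ghr at 57.2 ± 1.20, and the last 2 of these did not differ beyond their spread. Socs2 (10.1 ± 5.87), Stat5b (10.0 ± 0.039) and Cish (7.61 ± 4.54) were also within their spread, and Jak2 stood at 3.52 ± 0.34. In sgBap1-CCl4 livers Bcl6 was at 3.46 ± 0.41 CPM per kilobase (n = 3), above Stat5a at 1.94 ± 0.069, Cish at 1.87 ± 0.39 and Socs2 at 1.47 ± 0.18.

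A ratio within a liver does not depend on the scaling of the library. Per kilobase Bcl6 was 7.67% and 10.2% of Stat5b in the NTC-Veh livers and 32.3% and 28.5% in the sgBap1-Veh livers. It was 16.5%, 23.0% and 21.0% in the NTC-CCl4 livers and 66.4%, 57.6% and 57.9% in the sgBap1-CCl4 livers. The 4 groups did not overlap. Because Bcl6 enters this ratio, it is a description like the differences above.

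Among the other 8 genes none was called between sgBap1 and NTC livers under either treatment, where 0.406% of all genes were called with vehicle and 0.329% with CCl4. At an unadjusted p under 0.05 there were 3 of 8 with vehicle (Stat5a, Socs2 and Cish) and 2 of 8 with CCl4 (Stat5a and Igfals), against 12.3% and 14% of all genes. DESeq2's Wald test called none of the 8 in either comparison. With vehicle 6 of the 8 log2 fold changes were below 0 and with CCl4 all 8, with medians of -0.20 and -0.26 beside 0.02 and 0.00 over all genes. Of the 8 hepatocyte markers all 8 were below 0 with vehicle and 6 with CCl4, with medians of -0.27 and -0.13 and no call. The part of hepatocyte content in the shift of the pathway genes was not tested. The direction for Ghr with CCl4 and for Jak2 and Stat5b with vehicle turned when single livers were left out.

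Most of the 9 genes differed between CCl4 and vehicle livers. In NTC livers 6 of the 9 genes fell (Ghr, Stat5b, Igf1, Igfals, Socs2 and Cish), Jak2 rose, and Bcl6 and Stat5a were not called, where 53.9% of all genes were called, 27.4% higher and 26.6% lower. In sgBap1 livers 5 fell, Jak2 rose, and Bcl6, Stat5a and Cish were not called, where 57% of all genes were called, 29% higher and 28% lower. The median log2 fold change of the 9 was -0.98 in NTC and -0.91 in sgBap1 livers, beside 0.03 and 0.04 over all genes. With the library size alone as scaling, 8500 of 10561 called genes in NTC and 8614 of 11002 in sgBap1 livers were higher, against 4659 of 9178 and 4942 of 9700 here. At an unadjusted p under 0.05 there were 8 of the 9 genes in NTC and 7 in sgBap1 livers, against 59.1% and 61.7% of all genes. Vehicle and CCl4 livers did not overlap for 3 higher and 6 lower genes in NTC, where 36.7% of all genes were higher and 35% lower in this way. In sgBap1 livers they did not overlap for 2 higher and 6 lower genes, beside 37.3% and 34.9%.

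**Figure D2:**
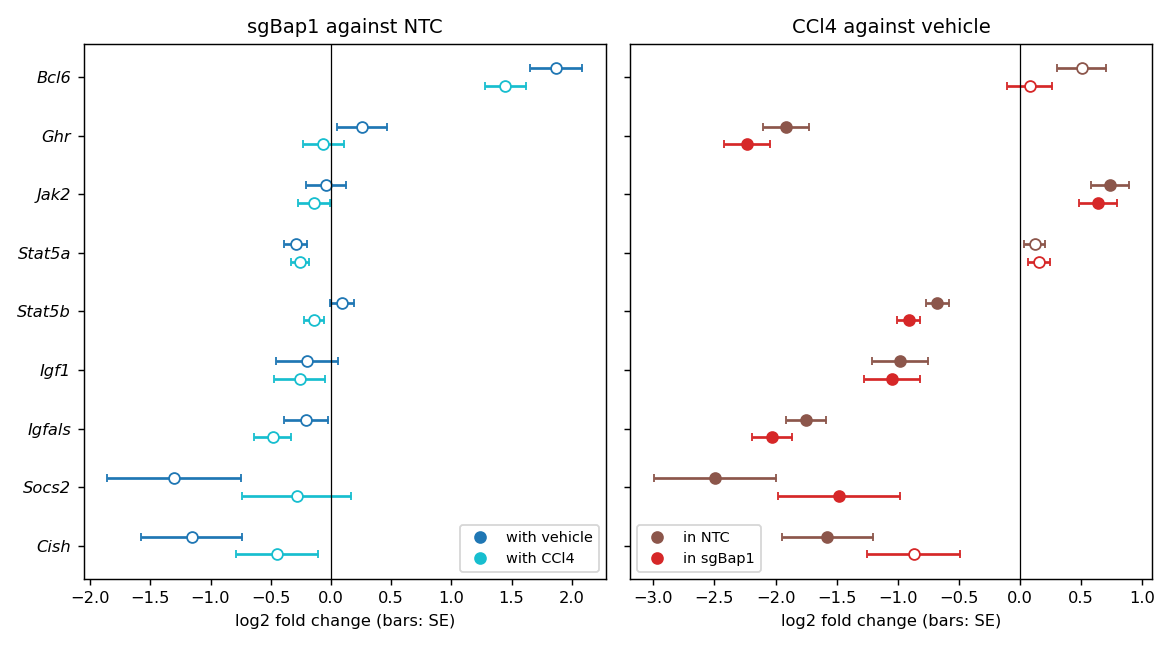
Log2 fold change (horizontal axes) of the 9 genes for sgBap1 against NTC, left, and CCl4 against vehicle, right, with bars of 1 SE. Filled points have an adjusted p under 0.05, and open points do not or, for Bcl6 on the left, were not tested. On the right Ghr is at -1.91 and -2.24 and Jak2 at 0.74 and 0.64, and on the left the points other than Bcl6 are open.

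Ghr, the receptor through which hepatocytes sense GH (chromosome 15, 3317760 to 3583492, minus strand), had 526 and 511 CPM in NTC-Veh and 538 and 704 CPM in sgBap1-Veh. With CCl4 it had 131, 161 and 121 CPM in NTC and 136, 103 and 157 CPM in sgBap1. The CCl4 livers lay far below the vehicle livers and the guides overlapped within CCl4. The LFC with CCl4 was -1.91 (SE 0.19, adjusted p = 1.9e-05) in NTC and -2.24 (SE 0.19, adjusted p = 7.3e-06) in sgBap1 livers. Between guides the vehicle livers gave 0.26 (SE 0.21, adjusted p = 0.699) and the CCl4 livers -0.06 (SE 0.17, adjusted p = 0.913).

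Jak2, the kinase bound to the receptor (chromosome 19, 29251828 to 29313080, plus strand), rose with CCl4. It had 16.5 and 18.9 CPM in NTC-Veh, 19.4 and 15.0 CPM in sgBap1-Veh, 28.5, 25.3 and 34.8 in NTC-CCl4 and 27.3, 28.1 and 24.8 in sgBap1-CCl4. Every CCl4 liver was above every vehicle liver, and the guides overlapped. The rise was 0.74 (log2, SE 0.15, adjusted p = 0.00231) in NTC and 0.64 (SE 0.15, adjusted p = 0.00508) in sgBap1 livers, and the latter was 0.46 (adjusted p = 0.0613) without sgBap1-Veh replicate 2.

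Stat5a and Stat5b are neighbours on chromosome 11. Stat5b (100780731 to 100850724, minus strand), the main Stat5 of liver, had 55.8 and 55.4 CPM in NTC-Veh, 64.8 and 53.7 CPM in sgBap1-Veh, 35.5, 36.2 and 32.7 in NTC-CCl4 and 32.8, 30.6 and 31.2 in sgBap1-CCl4. All CCl4 livers were below all vehicle livers. It fell by 0.68 on the log2 scale (SE 0.092, adjusted p = 0.00015) in NTC and by 0.91 (SE 0.092, adjusted p = 2.1e-05) in sgBap1 livers. With the library size alone the NTC value was -0.20 (adjusted p = 0.123), or -0.705 relative to the median gene on that scale.

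Stat5a (100859351 to 100885169, plus strand) had 15.4 and 15.1 CPM in NTC-Veh, 12.4 and 12.5 CPM in sgBap1-Veh, 16, 16.3 and 17.3 in NTC-CCl4 and 14.0, 14.2 and 13.3 in sgBap1-CCl4. The sgBap1 livers were below the NTC livers of the same treatment without overlap, as were 19.2% of all genes with vehicle and 10.2% with CCl4. The LFCs of -0.29 (SE 0.096, adjusted p = 0.230) and -0.26 (SE 0.076, adjusted p = 0.174) did not pass the threshold. CCl4 gave 0.12 (adjusted p = 0.272) in NTC and 0.15 (adjusted p = 0.156) in sgBap1 livers. With the library size alone Stat5a passed in both, at 0.59 (adjusted p = 0.00110) and 0.64 (adjusted p = 0.00069), near the median gene on that scale. Of the 50-base stretches of its transcripts 8.21% also occur in Stat5b, and 11% the other way round, so the 2 counts are not wholly separate, and 72 exon bases overlap Stat3 on the other strand.

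Igf1 (chromosome 10, 87858265 to 87937042, plus strand) had 979 and 782 CPM in NTC-Veh, 745 and 790 CPM in sgBap1-Veh, 476, 416 and 443 in NTC-CCl4 and 441, 238 and 436 in sgBap1-CCl4. Vehicle and CCl4 livers did not overlap, and the lowest value belonged to the liver with the adipocyte markers. Igf1 fell by 0.98 (log2, SE 0.23, adjusted p = 0.00471) in NTC and by 1.05 (SE 0.23, adjusted p = 0.00315) in sgBap1 livers. Without that liver the sgBap1 value was -0.81 (adjusted p = 0.00048). Between guides the vehicle livers gave -0.20 (SE 0.26, adjusted p = 0.837) and the CCl4 livers -0.26 (SE 0.21, adjusted p = 0.612), and the latter became -0.02 without that liver.

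Igfals (chromosome 17, 24865997 to 24882010, plus strand) had 191 and 182 CPM in NTC-Veh, 161 and 163 CPM in sgBap1-Veh, 59.3, 57.1 and 50.05 in NTC-CCl4 and 47.9, 29.5 and 41.5 in sgBap1-CCl4. Each step down in this order was without overlap. Between guides 19.2% of all genes with vehicle and 10.2% with CCl4 were lower in this way. With CCl4 Igfals fell by 1.75 (log2, SE 0.17, adjusted p = 1.6e-05) in NTC and by 2.03 (SE 0.17, adjusted p = 6.4e-06) in sgBap1 livers. Between guides the vehicle livers gave -0.21 (SE 0.18, adjusted p = 0.740) and the CCl4 livers -0.48 (SE 0.15, adjusted p = 0.195), and the latter was -0.31 (adjusted p = 0.300) without sgBap1-CCl4 replicate 2.

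Socs2, the suppressor whose loss makes mice overgrow (chromosome 10, 95385362 to 95417180, minus strand), had 136 and 56.5 CPM in NTC-Veh, 27.5 and 50.7 CPM in sgBap1-Veh, 20.4, 8.28 and 22.6 in NTC-CCl4 and 15.9, 12.6 and 13.5 in sgBap1-CCl4. The highest liver of a group held up to 2.72 times the lowest, against at most 1.85 for the other members except Cish. CCl4 gave -2.49 (log2, SE 0.50, adjusted p = 0.00377) in NTC and -1.48 (SE 0.50, adjusted p = 0.0354) in sgBap1 livers. The second was not called with the library size alone (-0.996, adjusted p = 0.106) or without a filter (-1.44, adjusted p = 0.0959). Nor was it called when any of the sgBap1-CCl4 livers was left out (adjusted p = 0.0606 to 0.117), and it was -0.97 without sgBap1-Veh replicate 2. The value in NTC livers was -1.73 (adjusted p = 0.0296) without NTC-Veh replicate 1. Between guides it was -1.30 (SE 0.56, adjusted p = 0.402) with vehicle, or -0.54 without NTC-Veh replicate 1, and -0.29 (SE 0.46, adjusted p = 0.829) with CCl4.

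Cish, the other early feedback inhibitor (chromosome 9, 107296026 to 107302784, plus strand), had 69.5 and 28.2 CPM in NTC-Veh, 17.8 and 26.1 CPM in sgBap1-Veh, 17.4, 12.3 and 19.4 in NTC-CCl4 and 14.5, 12 and 9.48 in sgBap1-CCl4. As for Socs2, NTC-Veh replicate 1 was the highest of all livers. CCl4 gave -1.58 (log2, SE 0.37, adjusted p = 0.00719) in NTC livers, but -0.79 (adjusted p = 0.0647) without that liver, and -0.87 (SE 0.38, adjusted p = 0.0805) in sgBap1 livers, where DESeq2's Wald test passed (adjusted p = 0.0179). Between guides it was -1.15 (SE 0.42, adjusted p = 0.311) with vehicle, or -0.37 without NTC-Veh replicate 1, and -0.45 (SE 0.34, adjusted p = 0.596) with CCl4.

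Socs2 and Cish had the same order of livers in both vehicle groups and in NTC-CCl4, but not in sgBap1-CCl4, and in part the order ran against Bcl6. In NTC-Veh replicate 1 was higher in both and lower in Bcl6, and in sgBap1-Veh replicate 2 was. In NTC-CCl4 replicate 2 had the most Bcl6, at 10.1 CPM, and the least Socs2 and Cish, at 8.28 and 12.3 CPM. In sgBap1-CCl4 the order was not so, since replicate 1 had the most of all 3 genes. With 2 or 3 livers a group no test of this relation was made.

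**Figure D3:**
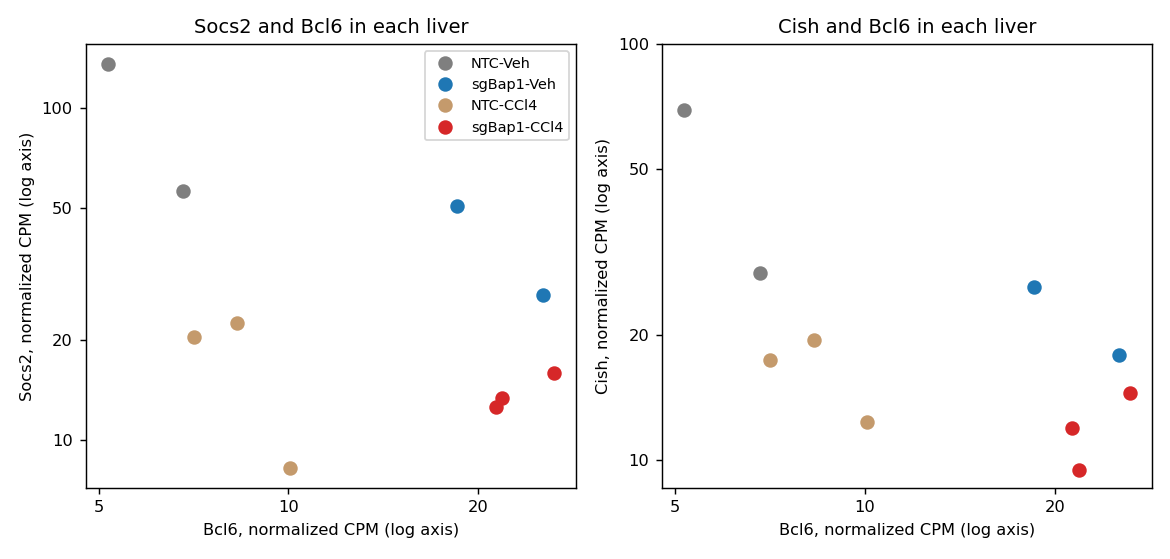
Socs2 (left) and Cish (right) against Bcl6 in each liver, in normalized CPM on log axes, with 1 point a liver. The liver with the least Bcl6 (5.17 CPM) has the most Socs2 (136 CPM) and Cish (69.5 CPM), and the sgBap1-CCl4 livers lie at 21.3 to 26.3 CPM of Bcl6 with 12.6 to 15.9 CPM of Socs2.

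The difference between the CCl4 responses of the 2 guides was tested as an interaction. None of the 8 genes was called, and none of all genes (0%). None of the 8 had an unadjusted p under 0.05, against 10.4% of all genes, and DESeq2's Wald test called none of the 8. Socs2 had the value farthest from 0, 1.01 (SE 0.71, adjusted p = 0.703), or 0.25 without NTC-Veh replicate 1. For Bcl6 the difference of the log2 fold changes was -0.42 (SE 0.27), a description.

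The other receptors, kinases and inhibitors of the pathway were followed as a list. Of 22 genes of GH and cytokine receptor signalling 13 rose and 4 fell in NTC livers, and 13 rose and 3 fell in sgBap1 livers, with medians of 0.50 and 0.41. Of all genes 27.4% rose and 26.6% fell in NTC livers, and 29% rose and 28% fell in sgBap1 livers. Prlr, the prolactin receptor and nearest relative of Ghr, fell from 426 and 438 to 126 to 155 CPM in NTC livers (log2 -1.61, SE 0.16, adjusted p = 2.2e-05) and by 1.62 in sgBap1 livers. Socs3, the inhibitor induced by interleukin signals, rose by 1.71 (SE 0.27, adjusted p = 0.00061) and 2.29 (SE 0.28, adjusted p = 0.00012). Sirpa, a receptor of myeloid cells that also binds phosphatases, rose by 2.44 in NTC and 1.64 in sgBap1 livers. Grb10, an adaptor that restrains insulin signals, rose by 1.85 in sgBap1 livers, with 20.1 CPM in replicate 2 of sgBap1-CCl4 against 12.5 and 9.14 in the others, and Src rose by 1.69 in NTC livers.

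Between guides 1 gene of the 22 was called with vehicle and none with CCl4, where 0.406% and 0.329% of all genes were, and DESeq2's Wald test called 2 and 0. Sirpa had 21.0 and 18.7 CPM in NTC-Veh and 36.7 and 31.7 CPM in sgBap1-Veh, an LFC of 0.78 (SE 0.14, adjusted p = 0.0487). Macrophage markers were higher in these livers too (above), and their part in Sirpa was not tested. The list had no call with the library size alone, with the replicate block, or in the fits without 1 liver, except the fit without sgBap1-CCl4 replicate 2. With CCl4 Ptpn11, a phosphatase of the pathway, had 0.13 (adjusted p = 0.461), and in the interaction Sirpa had -0.80 (adjusted p = 0.123).

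Of 15 further IGF ligands, receptors and binding proteins 14 were tested. With CCl4 3 rose and 5 fell in NTC livers (median -0.46), and 5 rose and 4 fell in sgBap1 livers (median 0.57). These counts are near the shares of all genes, 27.4% higher and 26.6% lower in NTC and 29% and 28% in sgBap1 livers, and without NTC-Veh replicate 1 the NTC count was 5 in place of 8. Igfbp3, the main partner of IGF1 and Igfals in blood, fell by 2.41 (log2, SE 0.25, adjusted p = 3.6e-05) in NTC and by 1.71 (SE 0.25, adjusted p = 0.00026) in sgBap1 livers. Igfbp2 fell by 2.30 and 2.03 and Igfbp4 by 1.39 and 1.36. Igfbp1, a binding protein induced by fasting and stress, rose from 135 and 137 to 325, 391 and 454 CPM in NTC livers (1.52, SE 0.30, adjusted p = 0.00194) and from 56.0 and 81.4 to 325 to 676 CPM in sgBap1 livers (2.91, SE 0.32, adjusted p = 5.5e-05). Its interaction of 1.39 was not called (adjusted p = 0.236).

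None of these 14 was called between guides by the quasi-likelihood test, with 2 and 4 at an unadjusted p under 0.05 (12.3% and 14% of all genes), and DESeq2's Wald test called 2 with vehicle and 1 with CCl4. With vehicle Igfbp1 (-0.98, adjusted p = 0.229) and Igfbp2 (-0.83, adjusted p = 0.226) had the smallest p-values. With CCl4 Igf2, the fetal growth factor, had 0.384, 0.169 and 0.260 CPM in NTC and 0.851, 0.959 and 0.786 CPM in sgBap1, from 9 to 56 counts, and it was not called (1.69, adjusted p = 0.0988). Stc1 had 1.88 (adjusted p = 0.197), with 3.15 CPM in sgBap1-CCl4 replicate 2, the liver with the adipocyte markers, against 0.817 and 0.595 in the others and 0.171 to 0.547 in NTC-CCl4.

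Bcl6 represses through corepressors and has close relatives. The list of 10 genes followed here also holds the transcription factors Prdm1 and Irf4, which are neither. None was called between guides by the quasi-likelihood test, with 2 and 1 at an unadjusted p under 0.05 (12.3% and 14% of all genes), and DESeq2's Wald test called 1 with vehicle. The corepressor Bcor had -0.44 (adjusted p = 0.317) with vehicle, and Mta3 (-0.30, adjusted p = 0.283) and Irf4 (1.09, adjusted p = 0.544) had the smallest p-values with CCl4. Irf4 had 7.09 CPM in the liver with the adipocyte markers, and its other sgBap1-CCl4 livers, at 1.17 and 1.11 CPM, were below the NTC-CCl4 livers at 1.32 to 1.62. With CCl4 3 rose and 1 fell in NTC livers, and 3 rose and 2 fell in sgBap1 livers, or 4 and 5 of 10 where 53.9% and 57% of all genes were called. The NTC count was 7 with the library size alone, and the sgBap1 count was 3 without sgBap1-Veh replicate 2. Bcl6b, the nearest paralogue, rose by 0.70 (SE 0.17, adjusted p = 0.00551) and 0.51 (SE 0.17, adjusted p = 0.0229). Zbtb20 fell by 0.54 and 0.49, and Hdac3, the deacetylase of the complex, fell by 0.36 in sgBap1 livers.

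The liver reads the rhythm of GH through a set of transcription factors, and most of these fell with CCl4. Of 9 such factors 8 fell in NTC and 7 in sgBap1 livers, with medians of -1.48 and -0.85, and none rose, where 26.6% and 28% of all genes fell. Cux2, the female-specific repressor, went from 76.5 and 67.4 to 19.8, 3.34 and 15.0 CPM in NTC livers (-2.51, SE 0.71, adjusted p = 0.0186) and had -2.55 in sgBap1 livers (adjusted p = 0.0164). Tox, also female-biased, fell from 16.9 and 17 to 4.75, 5.39 and 6.43 CPM (-1.62, SE 0.16, adjusted p = 1.6e-05). Cebpa, a hepatocyte identity factor, fell by 1.56 and 1.92. Hnf4a, the other central one, had -0.25 (adjusted p = 0.125) and -0.21 (adjusted p = 0.194). Onecut1 had 110 CPM in NTC-Veh replicate 1, the liver with the highest Socs2 and Cish, and 8.91 to 26.8 CPM in the other 9. No factor was called between guides by the quasi-likelihood test, with 4 and 1 at an unadjusted p under 0.05 (12.3% and 14% of all genes), and DESeq2's Wald test called 1 with vehicle. Here Foxa1 (-0.58, adjusted p = 0.134) and Onecut1 (-1.80, adjusted p = 0.292) were nearest with vehicle and Foxa1 (-0.27) and Foxa2 (-0.31) with CCl4.

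**Figure D4:**
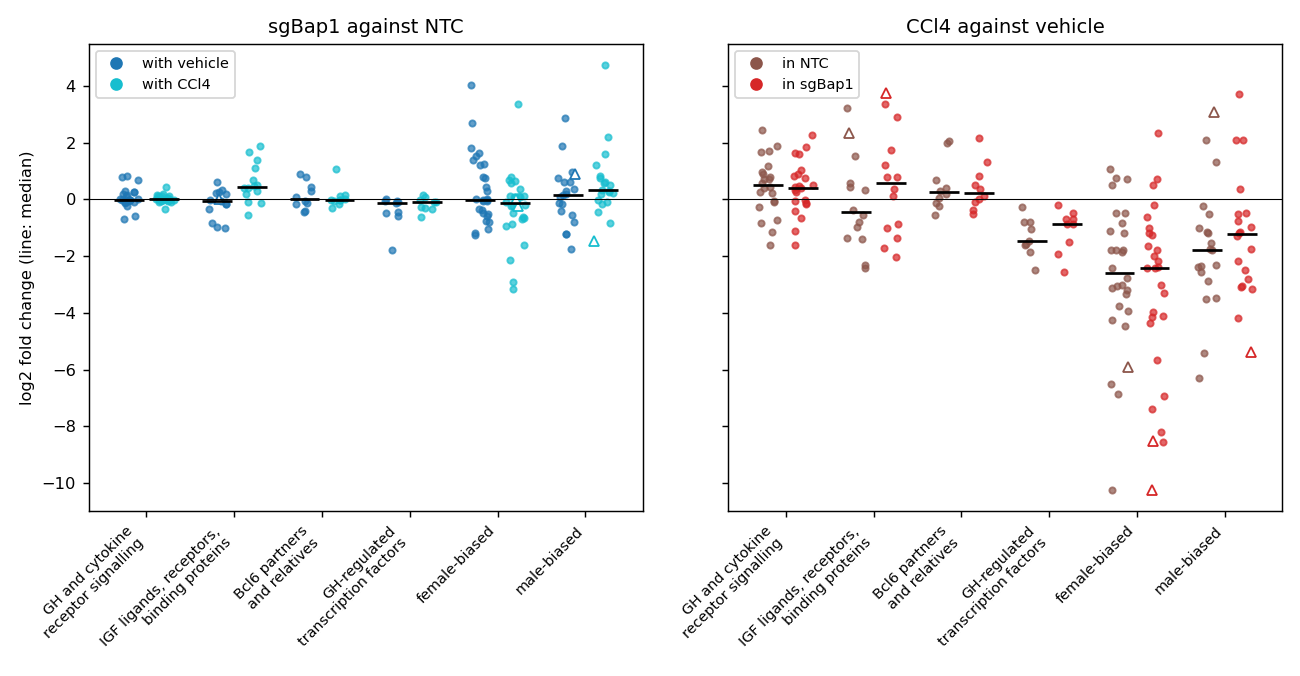
Log2 fold change (vertical axis) of each tested gene of 6 lists, for sgBap1 against NTC (left) and CCl4 against vehicle (right), with black lines at the medians. Open triangles are genes with at most 3 counts in every liver of a group, drawn at the bound that 3 counts allow. The female-biased genes have medians of -2.61 and -2.40 with CCl4 and -0.01 and -0.13 between guides.

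Genes whose liver level differs between the sexes are the classical targets of both Stat5b and Bcl6. Of 28 female-biased genes 1 rose and 19 fell with CCl4 in NTC livers (median -2.61), and 24 fell and none rose in sgBap1 livers (median -2.40). Of all genes 26.6% and 28% fell and 27.4% and 29% rose. The medians were the same with genes at the counting floor set to their bound. Sult3a1, a sulfotransferase, went from 164 and 106 to 0.0521 to 0.15 CPM in NTC and from 35.6 and 94.8 to 0.0514 to 0.319 CPM in sgBap1 livers. Cyp3a41b had no counts in any CCl4 liver, against 1.33 and 7.98 CPM in NTC-Veh and 68.0 and 87.3 CPM in sgBap1-Veh, and it has near-identical paralogues between which reads may be split, as have Cyp3a16 and the Sult2a and Cyp2a genes.

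None of the 28 was called between guides in either treatment by the quasi-likelihood test as run here, with 7 and 9 at an unadjusted p under 0.05, where 12.3% and 14% of all genes were. DESeq2's Wald test called 3 and 3, and 562 and 502 of all 17015 genes. With vehicle 1 was called with the library size alone, without a filter, with the method of edgeR 3, without NTC-Veh replicate 1 and without NTC-CCl4 replicate 3, and 2 without sgBap1-CCl4 replicate 2. Their medians were -0.01 with vehicle and -0.13 with CCl4. Cyp2a4, a cytochrome P450 of steroid metabolism, had 648 and 558 CPM in NTC-Veh and 1462 and 1437 CPM in sgBap1-Veh (1.26, SE 0.23, adjusted p = 0.0507). It was the gene that rose with CCl4 in NTC livers (0.76, SE 0.21, adjusted p = 0.0118), and it fell by 0.99 in sgBap1 livers (adjusted p = 0.00211), with an interaction of -1.75 (SE 0.30, adjusted p = 0.0694) that did not pass. Ntrk2 had 1.81 (adjusted p = 0.0826) with vehicle. With CCl4 Cyp2a22 (-1.61, adjusted p = 0.119) and Sult2a2 (-3.17, adjusted p = 0.121) were nearest.

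Of 25 male-biased genes 20 were tested in these female livers. With CCl4 2 rose and 11 fell in NTC livers (median -1.77), and 3 rose and 10 fell in sgBap1 livers (median -1.23), where 26.6% and 28% of all genes fell and 27.4% and 29% rose. Cyp7b1, an oxysterol hydroxylase, fell from 26.5 and 26.9 to 2.64 to 3.63 CPM in sgBap1 livers (-3.17, SE 0.17, adjusted p = 9.1e-07), and Cyp2f2 fell by 2.39 in NTC and 3.10 in sgBap1 livers. None was called between guides by the quasi-likelihood test, with 1 and 4 at an unadjusted p under 0.05 (12.3% and 14% of all genes), and DESeq2's Wald test called 1 with CCl4. Here Susd4 (-1.23, adjusted p = 0.208) and Mup1 (2.89, adjusted p = 0.444) were nearest with vehicle and Cyp2f2 (-0.83, adjusted p = 0.108) and Cyp7b1 (-0.44, adjusted p = 0.267) with CCl4. The Mup genes are near-identical copies, so their single counts are uncertain.

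Some hepatocyte and other markers also differed between CCl4 and vehicle livers. Of the 8 hepatocyte markers 4 fell with CCl4 in NTC livers, among them Cps1 by 1.76 and Alb by 0.76 (log2), and in sgBap1 livers Cps1 alone fell, by 1.41, and Fgb rose by 0.63, where 26.6% and 28% of all genes fell. Neutrophil markers summed to 5.38 to 11.5 CPM with vehicle and 25.9 to 36.5 CPM with CCl4, and Ptprc rose by 2.04 in NTC and 0.87 in sgBap1 livers. The part of lost hepatocytes and of incoming cells in the falls of Ghr, Igf1 and Igfals was not tested. Their log2 fold changes of -1.91, -0.98 and -1.75 in NTC livers stand beside a median of -0.58 for the hepatocyte markers. In sgBap1 livers -2.24, -1.05 and -2.03 stand beside a marker median of -0.29. Stellate markers summed to 219 to 286 CPM with vehicle and 380 to 808 CPM with CCl4. The 808 CPM belonged to the liver with the adipocyte markers, and the other CCl4 livers had at most 480 CPM. Endothelial markers summed to 132 to 178 CPM with vehicle and 147 to 174 CPM with CCl4, and bile duct markers to 4.46 to 7.81 and 11.9 to 17.8 CPM.

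Genes with the profile most like that of Bcl6 were sought among 12027 genes averaging 100 counts or more, by the root mean square difference of log2 CPM centred over the 10 livers. The 5 nearest were Igha (0.515), Hsph1 (0.536), Bag3 (0.539), Cyp2c55 (0.549) and Rragd (0.611), beside an SD of 0.893 of Bcl6 itself. Igha is the heavy chain of immunoglobulin A, Hsph1 and Bag3 are a chaperone and a co-chaperone of the heat shock response, Cyp2c55 is a cytochrome P450 and Rragd is a GTPase of nutrient sensing. Since likeness to Bcl6 selects a difference between guides, their own values are a description. Hsph1 had 39.7 and 40.5 CPM in NTC-Veh, 61.5 and 56.1 CPM in sgBap1-Veh, and with CCl4 43.8 to 46.7 (NTC) and 66.0 to 80.8 (sgBap1), without overlap between guides. Bag3 had 26.7 and 27.2 CPM in NTC-Veh, 41.7 and 52.0 CPM in sgBap1-Veh, and with CCl4 37.1 to 43.6 (NTC) and 52.2 to 58.1 (sgBap1). With each gene scaled to unit SD only 2 of the 5, Igha and Hsph1, were again among the nearest 5.

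**Figure D5:**
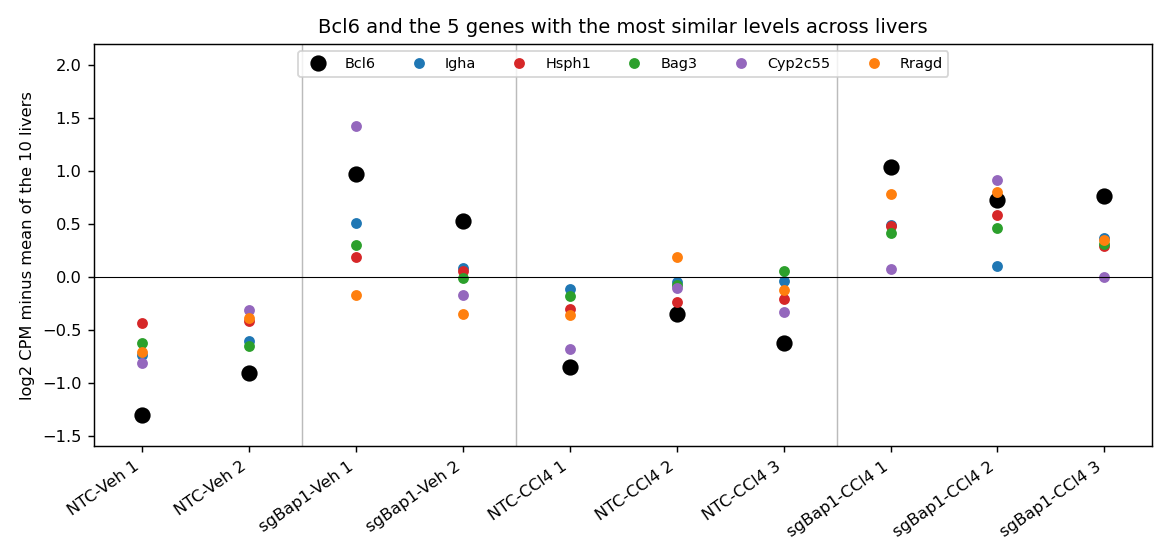
Log2 CPM minus the mean of the 10 livers (vertical axis) for Bcl6 and the 5 genes with the most similar profile, liver by liver, with vertical lines between groups. Bcl6 (black) is below its mean in the 5 NTC livers and above it in the 5 sgBap1 livers, with Hsph1 and Igha on the same sides. Cyp2c55 swings further than Bcl6 in sgBap1-Veh replicate 1 (1.42 against 0.98) and Rragd is below its mean in both sgBap1-Veh livers (-0.18 and -0.35).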

How the data were processed

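Bulk RNA-seq of 10 mouse livers in 4 groups was analysed. The authors made stranded mRNA libraries with paired reads of 50 bases, aligned them with STAR 2.7.6a to GRCm38 (mm10) and quantified them with Salmon 1.4.0 on GENCODE vM25. The deposited values are estimated counts per gene symbol, without normalization, and 9.22% of them are not whole. Groups and replicate numbers came from the sample labels. No batch is named there, and p-values measure the spread between these livers.

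Rounded counts were fitted with edgeR 4.0.16 under R 4.3.3 (filterByExpr, TMM, glmQLFit with robust = TRUE and legacy = FALSE, 1 model of the 4 groups). TMM factors were 0.786 to 0.851 in vehicle and 1.08 to 1.24 in CCl4 livers. Tests covered the 4 comparisons of 2 groups and their interaction, and the method was run on simulated counts first. The SE is the log2 fold change over the root of F. No 2 livers of a group agreed within sampling noise. The 9 genes and all lists were chosen with earlier results of these data known. Named genes are the 9, Bap1, from each list and comparison up to 4 called genes with the greatest absolute log2 fold change and a mean of at least 100 counts (or, with none, up to 2 with the smallest p), and the 5 most like Bcl6. Some genes that the rule names are not reported here. Il21, Adipoq and Hnf4a were added after their values were seen. Log2 CPM for likeness used a pseudocount of 2.

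Alternatives were DESeq2 size factors, the library size alone, other filters, the replicate number as a block, DESeq2's Wald test (DESeq2 1.42.0), the quasi-likelihood method of edgeR 3 (chosen after seeing the data), and each liver left out in turn. Gene positions, overlaps and stretches of 50 shared bases come from GENCODE vM21, and promoters from RefSeq on GRCm38.p6. Floors of 3 counts cover counting error only.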

Additional observations from a re-analysis of the deposited data

How the results depend on the processing

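The number of called genes among the 9 was 7 with CCl4 in NTC livers and 6 in sgBap1 livers. It stayed at 7 to 8 and 5 to 7 over the settings that kept all livers, and at 6 to 8 and 4 to 7 over the fits without 1 liver, and it was 0 of 8 between guides and in the interaction throughout. The check of Bap1 lost its call with vehicle under the library size alone (-0.91, adjusted p = 0.0510) and the replicate block (-0.91, adjusted p = 0.0744). With CCl4 it lost the call under the library size alone (-0.63, adjusted p = 0.0646) and the replicate block (-0.66, adjusted p = 0.0552). DESeq2's Wald test kept both calls (-0.90, adjusted p = 2.6e-07, and -0.65, adjusted p = 4.7e-06). Without single livers it ran from -0.99 to -0.84 with vehicle (adjusted p = 0.00919 to 0.120) and from -0.75 to -0.57 with CCl4 (adjusted p = 0.0287 to 0.147). The cause of the lost calls was not tested. In the fits without 1 liver, an arm left with 1 liver was tested on the spread pooled over the others. Scaling to unit SD kept 2 of the 5 genes most like Bcl6. Signs turned in 12 fits, each without 1 liver and none of a called value. Over the fits without 1 liver, Bcl6 with CCl4 in sgBap1 livers ran from -0.13 to 0.33, Ghr between guides with CCl4 from -0.21 to 0.0883, and between guides with vehicle Jak2 from -0.25 to 0.13 and Stat5b from -0.0529 to 0.22. In the interaction Jak2 ran from -0.27 to 0.11, Igf1 from -0.23 to 0.17 and Cish from -0.0826 to 1.21. Replicate numbers did not pair the livers, with correlations of -0.149 to 0.022 between the deviations of same-numbered livers, and with the replicate block the 9 genes had 7 and 6 calls with CCl4 as before. Over all genes the block left 1 call between guides with vehicle and 24 with CCl4, against 69 and 56, and DESeq2's Wald test made 562 and 502, and 420 in the interaction against 0. The library size alone left 32 with vehicle and gave 2 in the interaction, and without a filter there were 94 with CCl4 and 34 in the interaction. In the interaction DESeq2's Wald test called 2 genes of GH and cytokine receptor signalling, 1 of the IGF list and 4 female-biased genes, where the quasi-likelihood test called none. Each group held 2 or 3 livers, and the part of sequencing depth in these comparisons was not tested.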
